A study of Mus musculus with 16 samples.

Results

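Collagen genes are described here across 16 poly(A) RNA-seq libraries of mouse tumour organoids. The members are the genes whose mouse symbol is Col, a type number, the letter a and a chain number, found through the Entrez gene number that names each row of the deposited table. The rule found 44 genes among 27179 rows. Of these, 31 were measured, meaning that they held at least 10 normalised reads in at least 2 libraries, and 13 were not. Normalised reads are reads per gene divided by a size factor of the library, and this scale is used throughout unless another is named.

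Collagens are matrix proteins built from chains that wind around each other into a rope-like helix, and each gene codes for 1 kind of chain. Fibrillar collagens form the cables of connective tissue, type IV collagen forms the sheet of the basement membrane beneath epithelia, and other types anchor, decorate or link these structures or sit in the cell membrane. In the intestine most fibrillar collagen is made by mesenchymal cells, while the epithelium rests on a basement membrane to which several cell types contribute.

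The organoids are mouse intestinal tumour organoids (MTOs), cultures of tumour epithelium embedded in basement-membrane extract, and the study put them in media that lack a usual component. AKP lines MTO54 and MTO220, labelled as wild type for Tgfbr2, were grown in TGF-beta medium, which held TGF-beta1 (5 ng/µl as the labels print it), EGF (50 ng/ml) and noggin (100 ng/ml) without galunisertib, and in full medium. APT lines MTO100 and MTO101 were grown in medium without EGF, which held noggin (100 ng/ml) and galunisertib (1 µM), and in full medium. Full medium held EGF (50 ng/ml), noggin (100 ng/ml), a blocker of BMP signalling, and galunisertib (1 µM), which blocks the kinase of the type I receptor for TGF-beta. By the usual reading of these names, which the labels do not spell out, all 4 lines share lesions in Apc and Trp53, and the APT lines also carry a lesion in Tgfbr2. TGF-beta medium and medium without EGF were sampled at day 7 and full medium at day 4, so the medium and the longer culture cannot be told apart in any comparison of media.

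Each line and medium had 2 libraries, from consecutive passages, called pool 1 and pool 2 here after their titles. The first full-medium library of MTO54 is titled replicate 1 and was read as pool 1, and the titles do not say what was pooled. No label says that the passages were independent cultures, so the p-values measure only the spread between these libraries. Between 17056053 and 22251986 reads fell on genes in a library, and 16791 to 19375 genes had at least 1 read. Markers of intestinal epithelium summed to 95706 to 227969 normalised reads in every library. Trp53 RNA measured 1916 to 4207 normalised reads in all 4 libraries labelled MTO220, against 91.2 to 252 in the other 12, so results are given for each line on its own as well as for both. In bulk RNA, fewer cells of a type and less RNA per cell cannot be told apart.

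The measured chains cover most collagen families, as the heat map of 31 chains shows. All members of the multiplexins (Col15a1, Col18a1), the anchoring fibril (Col7a1) and the type IX group (Col9a1, Col9a2, Col9a3) were measured, with 5 of 6 type IV chains and 7 of 11 fibrillar chains. Only 2 of 6 type VI chains were measured. The chains not measured were Col1a2, Col4a6, Col5a2, Col6a2, Col6a4, Col6a5, Col6a6, Col10a1, Col11a1, Col13a1, Col19a1, Col24a1 and Col25a1, whose values ran from 0 to 12.0 normalised reads, and 9 of them stayed under 5 in every library. Just outside the threshold stood Col11a1, with a second-highest library at 9.22 normalised reads, and just inside stood Col2a1, at 13.2.

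**Figure D1:**
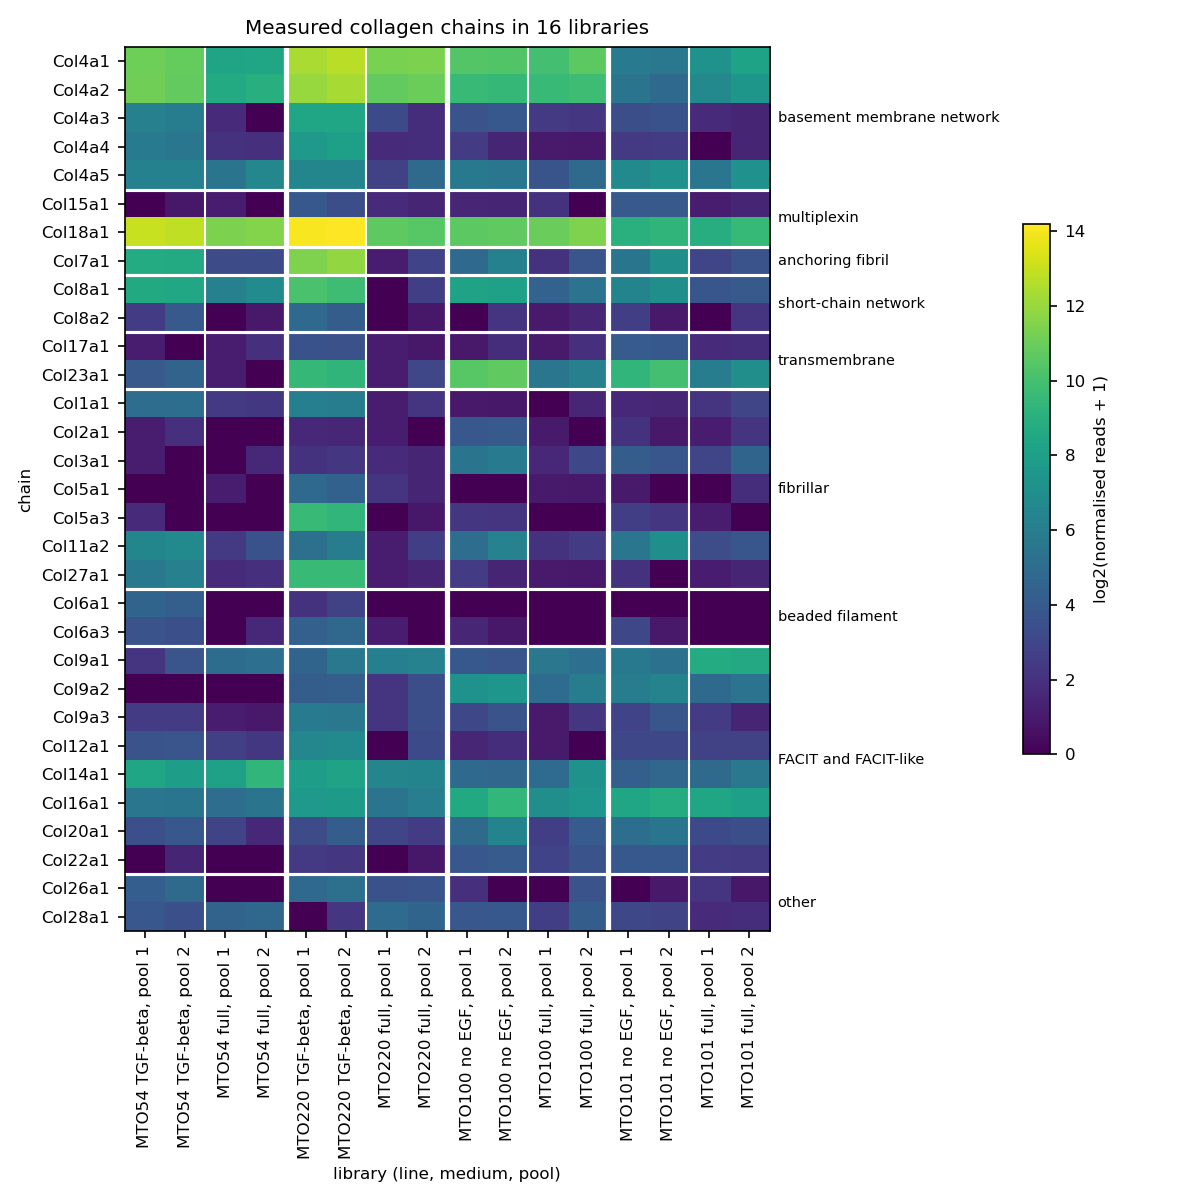
Level of the 31 measured collagen chains in each of the 16 libraries, as log2(normalised reads + 1), with chains in rows grouped by family and libraries in columns by line, medium and pool. Col18a1, Col4a1 and Col4a2 are the brightest rows, and Col7a1, Col8a1 and Col23a1 are brighter in TGF-beta medium or medium without EGF than in full medium of the same line.

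Collagen RNA was a small share of the reads and grew in both AKP lines. Collagen genes together took 0.189% ± 0.021 of reads in TGF-beta medium of MTO220, against 0.0306% ± 0.0041 in its full medium (SD, n = 2 each). In MTO54 they took 0.0677% ± 0.0083 of reads in TGF-beta medium, against 0.0204% ± 0.0031 in full medium (SD, n = 2 each). The shares in the APT lines were 0.0395% ± 0.0024 without EGF against 0.0250% ± 0.0070 in full medium for MTO100, and 0.0145% ± 0.0036 without EGF against 0.0102% ± 0.0036 in full medium for MTO101 (SD, n = 2 each). The SDs of MTO101 overlapped, and those of the other 3 lines did not. On average 25 chains reached 10 normalised reads in TGF-beta medium of MTO220, against 8.5 in its full medium.

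Levels of different chains are compared per kilobase of exon. On this scale Col18a1, the chain of type XVIII collagen from which endostatin is cut, led in both media of MTO54, with 1098 normalised reads per kb in TGF-beta medium and 404 in full medium. In MTO220 Col18a1 led in TGF-beta medium at 2572 per kb, while Col4a1 led in full medium at 401 per kb. Col23a1, a transmembrane collagen, led in both APT lines without EGF, at 275 per kb in MTO100 and 143 per kb in MTO101. In full medium the leading chain of MTO100 was Col18a1, at 343 per kb, and that of MTO101 was Col9a1 by the mean of 2 libraries, at 97.2 per kb. In pool 2 of MTO101 in full medium Col18a1 took a larger share of collagen RNA per kb than Col9a1, at 25.7% against 22.8%.

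The make-up of collagen RNA per kb differed between media, not in the same way in every line. Col4a1 and Col4a2, the common pair of type IV collagen, made up 30.5% ± 2.2 of collagen RNA per kb in TGF-beta medium of MTO220, against 70.7% ± 1.6 in its full medium (SD, n = 2 each). In MTO54 the share of the pair was higher in TGF-beta medium, at 30.9% ± 1.1 against 18.3% ± 1.0 in full medium (SD, n = 2 each). Col23a1 made up 25.1% ± 0.4 without EGF in MTO100, against 1.36% ± 0.07 in full medium, and 32.2% ± 2.8 without EGF in MTO101, against 4.48% ± 1.59 in full medium (SD, n = 2 each). The share of Col9a1 in MTO101 was 2.70% ± 1.05 without EGF, against 27.4% ± 6.5 in full medium (SD, n = 2 each).

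**Figure D2:**
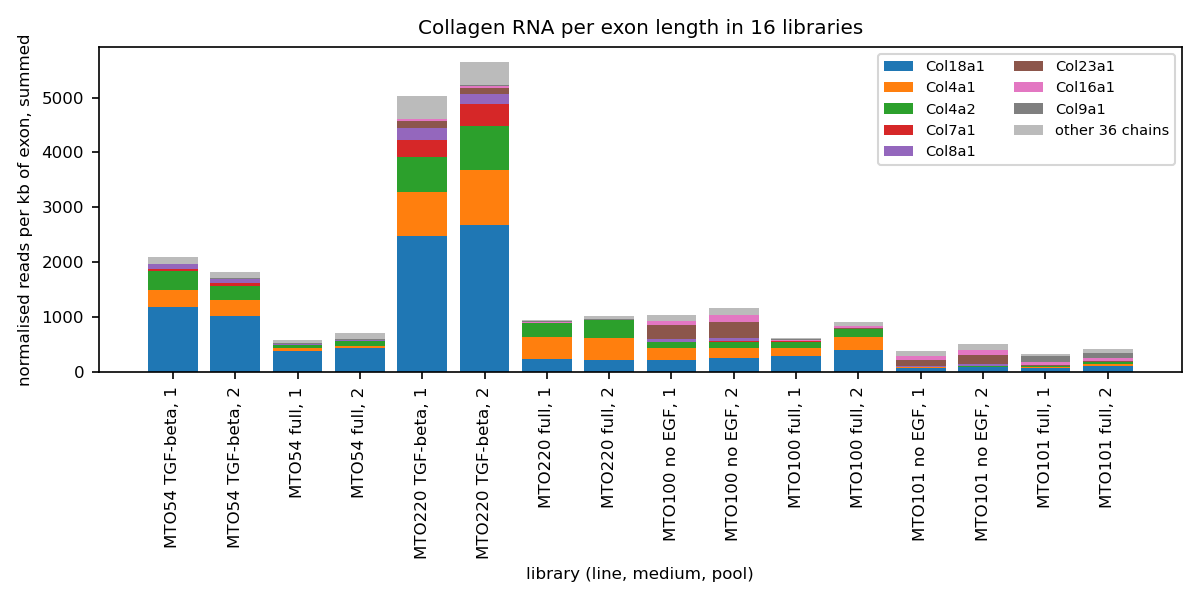
Collagen RNA in each of the 16 libraries, as normalised reads per kb of exon summed over the 44 genes (bars, from 0), with 8 chains in colour and the other 36 in grey. Both TGF-beta libraries of MTO220 stand highest, and Col23a1 (brown) makes up a larger part of the bar in the 4 libraries without EGF, from 24.8% to 34.2%, than in the other 12, where it is at most 5.61%.

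What TGF-beta medium did to collagen RNA in AKP organoids was asked over 8 libraries with the line as a term. Of 27 chains tested, 20 were higher in TGF-beta medium than in full medium, 2 were lower and 5 did not pass (limma, Benjamini-Hochberg adjusted p under 0.05 over all genes tested). Over all 14842 genes tested, 52.9% were called, 27.9% higher and 25.0% lower. The median log2 change was 3.03 over the 27 chains and 0.04 over all genes. The test took only genes with at least 10 normalised reads in 2 of the 8 libraries. Of the 27 chains, 17 met this only through TGF-beta medium. They entered through the medium in which they were high, so their count and the median over all 27 support nothing. Of the 10 chains that met it in full medium, 6 were higher and 2 lower, and the other 17 collagen genes were not tested.

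Network chains of the basement membrane were among the most abundant that rose. Col4a1 (chromosome 8, 11198423 to 11312889, GRCm38, the mm10 assembly) had 5420.3 and 6709 normalised reads in the TGF-beta libraries of MTO220, against 2608 and 2719.6 in its full-medium libraries. In MTO54 it had 2153 and 1848 in TGF-beta medium, against 312 and 339 in full medium. All 4 TGF-beta libraries stood above the full-medium libraries of their own line, and the change over both lines was 1.90 ± 0.26 on the log2 scale (SE, limma adjusted p = 0.000232). Its partner Col4a2 (chromosome 8, 11312805 to 11449287) had 4117 and 5139.9 in TGF-beta medium of MTO220, against 1748 and 2038 in full medium. It had 2183 and 1744 in TGF-beta medium of MTO54, against 402 and 478 in full medium. The log2 change of Col4a2 was 1.72 ± 0.20 (SE, limma adjusted p = 8.38e-05), and neither line's groups overlapped.

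The scarcer type IV chains changed by more. Col4a3 and Col4a4 code for chains of the network found in the kidney filter and a few other basement membranes, and both were close to 0 in full medium. Col4a3 (chromosome 1, 82586921 to 82722059) had 325 and 329.7 normalised reads in TGF-beta medium of MTO220, against 8.05 and 2.66 in full medium, and 71.6 and 61.4 in TGF-beta medium of MTO54, against 2.18 and 0 in full medium. Col4a4 (chromosome 1, 82448419 to 82587034) had 194 and 257 in TGF-beta medium of MTO220, against 2.30 and 2.66 in full medium, and 54.5 and 47.0 in TGF-beta medium of MTO54, against 3.28 and 2.98 in full medium. The groups stood far apart in both lines, and the log2 changes were 5.54 ± 0.44 for Col4a3 and 4.83 ± 0.47 for Col4a4 (SE, limma adjusted p = 9.21e-06 and 3.01e-05). Exons of Col4a3 share 6.58% of their bases with a gene on the other strand, C430014B12Rik, whose reads cannot be told apart without strand. Col4a5, the third chain of that network, passed in MTO220, with 90.4 and 92.2 in TGF-beta medium against 5.75 and 29.3 in full medium (log2 change 2.69 ± 0.61, adjusted p = 0.00368). In MTO54 its groups overlapped, at 73.9 and 75.9 in TGF-beta medium against 42.6 and 94.3 in full medium, and over both lines it did not pass (adjusted p = 0.0544).

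Col18a1 (chromosome 10, 77052178 to 77166530) was the most abundant collagen RNA of TGF-beta medium. It had 17334 and 18788 normalised reads in TGF-beta medium of MTO220, against 1637 and 1481 in full medium, which is 11.6-fold higher by the means. In MTO54 it had 8228 and 7193 in TGF-beta medium, against 2670.2 and 2997 in full medium, or 2.72-fold higher. The groups did not overlap in either line, and the log2 change over both was 2.49 ± 0.35 (SE, limma adjusted p = 0.000267). Its relative Col15a1 did not exceed 14.8 normalised reads in any library and was not tested in AKP, with a mean of 11.7 in TGF-beta medium of MTO220 against 2.04 in its full medium.

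The largest log2 change in AKP belonged to Col7a1 (chromosome 9, 108953586 to 108984875), whose protein forms the anchoring fibrils that tie basement membranes to the tissue below. Its libraries held 2800.0 and 3740.4 normalised reads in TGF-beta medium of MTO220, against 1.15 and 6.22 in full medium. In MTO54 they held 423 and 402 in TGF-beta medium, against 8.74 and 8.93 in full medium. The means differed 888-fold in MTO220, where full medium held 8 reads in all, and 46.7-fold in MTO54, and the log2 change over both was 7.54 ± 0.74 (SE, limma adjusted p = 3.23e-05).

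Both type VIII chains and the transmembrane chain Col23a1 were higher too, while Col17a1, the other transmembrane chain measured, did not pass over both lines (adjusted p = 0.415). Col8a1 (chromosome 16, 57624256 to 57754737), a short network collagen known from vessel walls and the cornea, had 1106 and 898 normalised reads in TGF-beta medium of MTO220, against 0 and 5.33 in full medium. In MTO54 it had 389 and 362 in TGF-beta medium, against 72.1 and 116 in full medium. The groups did not overlap, and the log2 change was 5.33 ± 1.12 (SE, limma adjusted p = 0.00287). In MTO54 alone it was 2.02 ± 0.65 (adjusted p = 0.0366), and leaving out any of the 4 MTO54 libraries ended that call (adjusted p = 0.064 to 0.169). Its partner Col8a2 had 28.0 and 17.1 in TGF-beta medium of MTO220 and 4.55 and 14.5 in that of MTO54, against 0 to 0.992 in the 4 full-medium libraries (log2 change 3.39 ± 0.59, adjusted p = 0.000995). Col23a1 (chromosome 11, 51289679 to 51583925) had 706 and 620.4 in TGF-beta medium of MTO220, against 1.15 and 7.11 in full medium. In MTO54 the levels of Col23a1 were far lower, at 14.8 and 21.7 in TGF-beta medium against 1.09 and 0 in full medium. Over both lines it rose by 5.51 ± 0.72 on the log2 scale (SE, limma adjusted p = 0.000186).

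**Figure D3:**
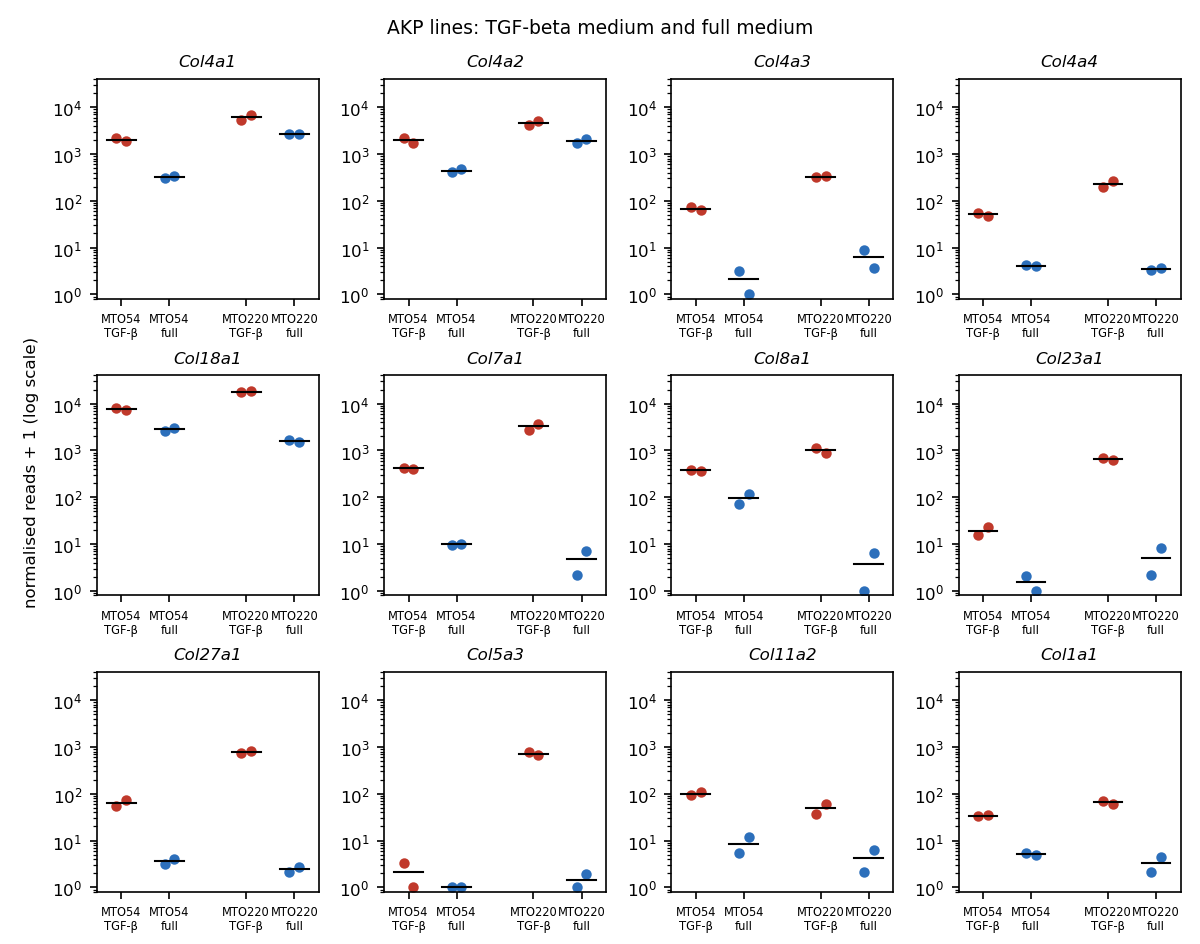
Normalised reads + 1 (log axis) of 12 collagen chains in the 8 AKP libraries, with TGF-beta medium in red to the left of full medium in blue for each line, points for libraries and lines for the mean of 2. Red points lie above blue points in both lines except for Col5a3 in MTO54, where the TGF-beta libraries held 2.27 and 0 normalised reads and the full-medium libraries 0.

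Fibrillar chains rose in part, and as single chains rather than whole sets. Col27a1 (chromosome 4, 63214009 to 63334991), a fibrillar collagen of cartilage, had 756 and 801 normalised reads in TGF-beta medium of MTO220, against 1.15 and 1.78 in full medium, and 53.4 and 71.4 in TGF-beta medium of MTO54, against 2.18 and 2.98 in full medium. Its log2 change was 6.23 ± 0.71 (SE, limma adjusted p = 7.44e-05). Col11a2 (chromosome 17, 34038919 to 34066684), a chain of the thin fibrils of cartilage, had 92.0 and 106 in TGF-beta medium of MTO54, against 4.37 and 10.9 in full medium, and 36.6 and 60.8 in TGF-beta medium of MTO220, against 1.15 and 5.33 in full medium. Neither chain overlapped between media in either line, and Col11a2 rose by 3.67 ± 0.43 on the log2 scale (SE, limma adjusted p = 9.33e-05).

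Type I and type V collagen each showed chains without their usual partner. Col1a1, the main chain of type I collagen, had 67.8 and 60.8 normalised reads in TGF-beta medium of MTO220, against 1.15 and 3.55 in full medium, and 33.0 and 33.4 in TGF-beta medium of MTO54, against 4.37 and 3.97 in full medium (log2 change 3.55 ± 0.44, limma adjusted p = 0.000137). Col1a2, its partner, stayed between 0 and 4.44 in all 16 libraries. Col5a3 (chromosome 9, 20770050 to 20815117), a minor type V chain, had 778 and 659 in TGF-beta medium of MTO220, against 0 and 0.888 in full medium, and 2.27 and 0 in TGF-beta medium of MTO54, against 0 in both full-medium libraries. The difference thus lay in MTO220, with a log2 change of 9.03 ± 0.62 (adjusted p = 1.8e-06), and in MTO54 it was 0.86 ± 0.62 (adjusted p = 0.317). Over both lines Col5a3 passed (4.94 ± 1.36, adjusted p = 0.0114) but not once either full-medium library of MTO220 was left out (adjusted p = 0.0553 and 0.0734). Col5a1, the main type V chain, had 28.0 and 20.0 in TGF-beta medium of MTO220, against 3.45 and 1.78 in full medium, and 0 to 1.09 in MTO54, while Col5a2 did not exceed 1.15 in any library. The fibroblast markers Pdgfra and Dcn were also higher in TGF-beta medium, by 3.57 ± 0.35 and 2.14 ± 0.70 on the log2 scale (SE, limma adjusted p = 3.34e-05 and 0.0257), and their part in the levels of fibrillar chains was not tested. Col5a3 lies outside the rule for values in every library and was chosen after its values were seen.

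Type VI collagen, which forms beaded filaments around cells, was seen at low levels and also in part. Col6a1 had 22.7 and 19.0 normalised reads in TGF-beta medium of MTO54 and 3.23 and 5.70 in that of MTO220, against 0 in all 4 full-medium libraries, at least 6.67-fold higher in MTO54 when full medium is set to 3 reads per library. Col6a3 had 19.4 and 26.6 in TGF-beta medium of MTO220 and 11.4 and 9.94 in that of MTO54, against 0 to 1.98 in full medium. Both passed (limma adjusted p = 0.000946 and 0.00075), while Col6a2, the chain that joins them, stayed between 0 and 1.90 in all 16 libraries.

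Fibril-associated collagens (FACITs), which coat fibrils without forming them, went both ways in AKP. Col9a1, the chain that carries the large end domain of type IX collagen, fell to 3.41 and 12.6 normalised reads in TGF-beta medium of MTO54, against 31.7 and 35.7 in full medium. In MTO220 it had 22.6 and 50.4 in TGF-beta medium, against 67.8 and 76.4 in full medium, a difference that did not pass in that line (adjusted p = 0.122). In MTO54 it passed (adjusted p = 0.0128), but not without pool 1 in TGF-beta medium (adjusted p = 0.109) or pool 2 in full medium (adjusted p = 0.0515). Over both lines Col9a1 fell by 1.61 ± 0.44 on the log2 scale (SE, limma adjusted p = 0.0107). Its partner Col9a3 moved the other way, with 56.0 and 51.3 in TGF-beta medium of MTO220, against 3.45 and 9.77 in full medium, and 4.55 and 4.52 in TGF-beta medium of MTO54, against 1.09 and 0.992 in full medium (log2 change 2.21 ± 0.49, adjusted p = 0.0037). Tested by line, Col9a3 passed in MTO220 and not in MTO54. Exons of Col9a3 share 7.68% of their bases with Tcfl5 on the other strand. Col9a2 was at 0 in all 4 MTO54 libraries and did not pass over both lines (adjusted p = 0.301).

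Of the remaining FACITs tested, Col12a1, Col16a1 and Col20a1 passed over both lines and Col14a1 did not. Tested by line, Col12a1 and Col16a1 passed in MTO220 and not in MTO54. Col12a1, found along fibrils under tension, had 94.7 and 105 normalised reads in TGF-beta medium of MTO220, against 0 and 7.99 in full medium, and 11.4 and 12.6 in TGF-beta medium of MTO54, against 5.46 and 3.97 in full medium (log2 change over both lines 3.14 ± 0.84, limma adjusted p = 0.0103). Col16a1 had 202 and 213 in TGF-beta medium of MTO220, against 43.7 and 65.7 in full medium, and 46.6 and 45.2 in TGF-beta medium of MTO54, against 32.8 and 43.7 in full medium. It passed over both lines (1.10 ± 0.35, adjusted p = 0.0221), but not with the pool pairs as a term (adjusted p = 0.0530) and not without any 1 of the 4 MTO220 libraries (adjusted p = 0.0579 to 0.0785). Col20a1 had 8.61 to 17.1 in TGF-beta medium against 1.98 to 6.90 in full medium, passed narrowly (adjusted p = 0.0464), and did not pass with the pool pairs as a term (adjusted p = 0.0902) or without any 1 of 6 libraries (adjusted p = 0.0540 to 0.134). By line Col20a1 changed by 1.43 ± 0.57 in MTO54 and 1.01 ± 0.57 in MTO220 without passing in either. Col14a1, an abundant FACIT, did not pass over both lines (0.52 ± 0.42, adjusted p = 0.318), since MTO220 had 244 and 285 in TGF-beta medium against 87.4 and 82.6 in full medium while MTO54 had 325 and 248 in TGF-beta medium against 276 and 648 in full medium.

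Of the last chains, Col26a1, a small collagen outside the main families, had 28.0 and 37.1 normalised reads in TGF-beta medium of MTO220, against 10.3 and 11.5 in full medium, and 18.2 and 28.9 in TGF-beta medium of MTO54, against 0 in both full-medium libraries (limma adjusted p = 0.00221). Col28a1, a collagen known from peripheral nerve, was lower in TGF-beta medium, with 0 and 3.80 in MTO220 against 29.9 and 23.1 in full medium, and 13.6 and 9.94 in MTO54 against 21.8 and 26.8 in full medium (log2 change -2.32 ± 0.64, adjusted p = 0.0119). In MTO54 alone Col28a1 did not pass (adjusted p = 0.267). Col17a1, the hemidesmosome collagen of stratified epithelia, had 10.8 and 10.5 in TGF-beta medium of MTO220 against 1.15 and 0.888 in full medium, and 1.14 and 0 in TGF-beta medium of MTO54 against 1.09 and 2.98 in full medium.

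Taken line by line, MTO220 gave more calls than MTO54. In MTO220, 23 of 27 chains tested were higher and 1 lower in TGF-beta medium, where 29.3% and 25.6% of all genes were (54.9% in either direction). In MTO54, 15 were higher and 1 lower, where 17.1% and 15.4% of all genes were (32.5% in either direction). Again 17 of the 27 chains met the filter only through TGF-beta medium. Of the 10 that met it in full medium, 8 were higher and 1 lower in MTO220, and 5 were higher and 1 lower in MTO54. Full medium of both lines counted for the filter, so a chain could meet it through the other line. Col8a1, higher in MTO220, held 0 and 5.33 in full medium there, and Col26a1, higher in MTO54, held 0 in both full-medium libraries there.

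Whether the lines differed in their response was tested directly, as the TGF-beta response of MTO220 minus that of MTO54. Of 27 chains, 11 responded more strongly upward in MTO220 and 2 less, where 6.95% and 3.55% of all 14842 genes did. Of the 11, 7 had met the filter only through TGF-beta medium, so the count supports nothing, and of the 10 chains that met it in full medium 4 responded more and 2 less. Among the latter, Col8a1 met it through full medium of MTO54 alone and Col26a1 through that of MTO220 alone. Col5a3 had the largest limma difference, 8.17 ± 0.88 on the log2 scale (SE, adjusted p = 0.000526), but edgeR did not call it (adjusted p = 0.994). It was followed by Col8a1 with 6.61 ± 0.92 (adjusted p = 0.00209), Col7a1 with 4.29 ± 0.66 (adjusted p = 0.00307) and Col27a1 with 4.18 ± 0.52 (adjusted p = 0.00135). For Col18a1 the difference was 2.09 ± 0.25 (adjusted p = 0.000926). Col4a1 responded less in MTO220 (-1.43 ± 0.26, adjusted p = 0.00713), and so did Col26a1 (-3.11 ± 0.64, adjusted p = 0.0125), although leaving out pool 1 of MTO220 in TGF-beta medium ended both calls (adjusted p = 0.067 and 0.100). The other chains called were Col4a4, Col14a1, Col16a1, Col17a1, Col5a1 and Col23a1. EdgeR did not call Col4a4, Col5a1, Col17a1 or Col23a1 (adjusted p = 0.0740 to 0.580). Of these chains Col17a1 was lost with the pool pairs as a term (adjusted p = 0.0512) while Col12a1 was gained (adjusted p = 0.0434). This count rests on single libraries: it was 8 and 6 without pool 1 or pool 2 of MTO54 in TGF-beta medium, 4 and 6 without pool 1 or pool 2 of MTO220 in TGF-beta medium and 7 without pool 1 of MTO220 in full medium.

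**Figure D4:**
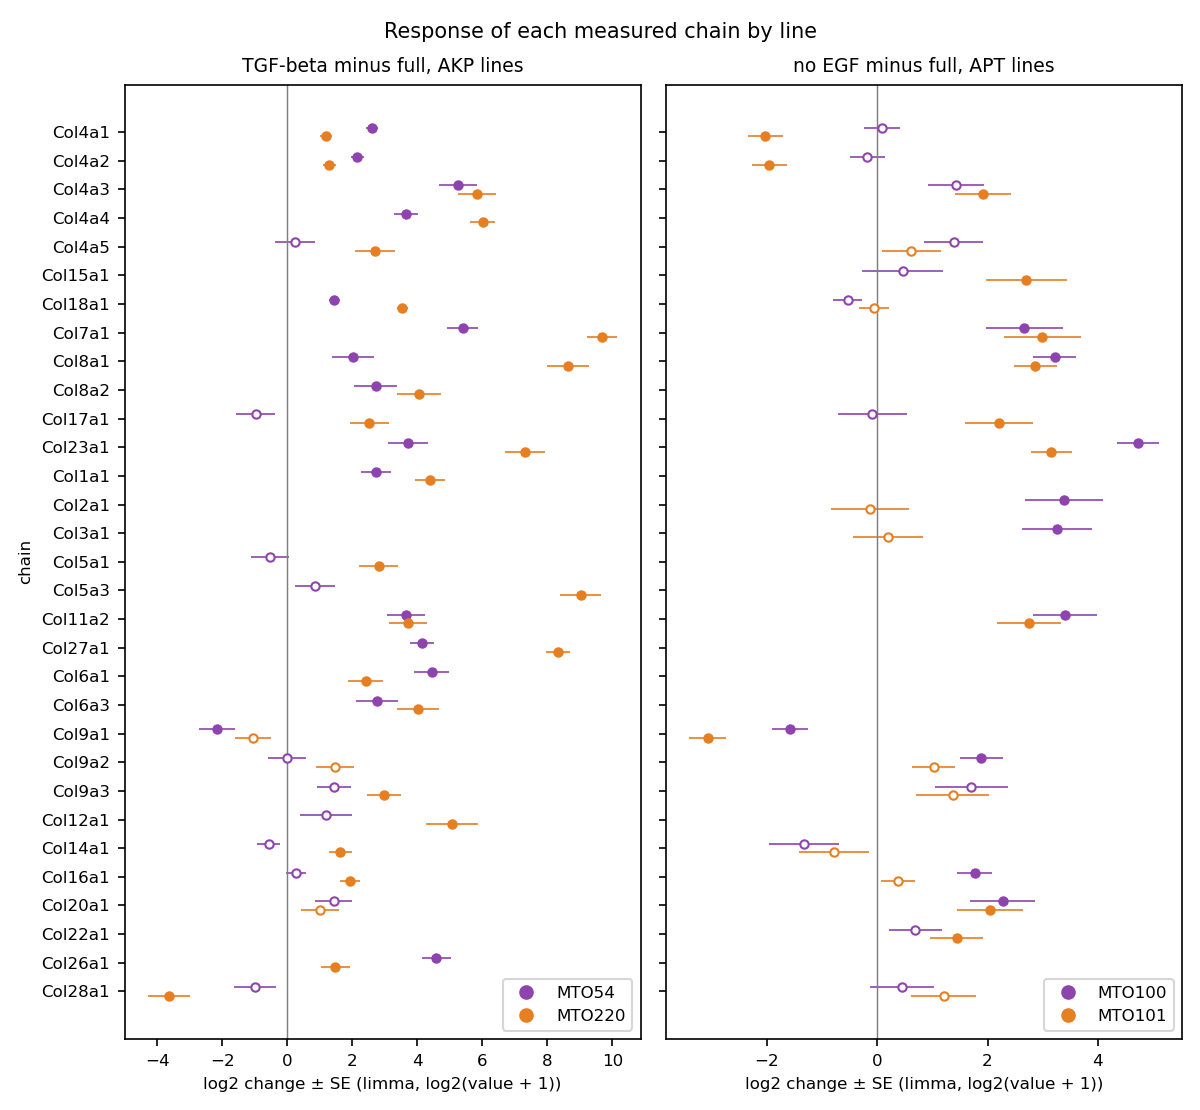
Log2 change ± SE (limma) of each chain tested, with TGF-beta medium minus full medium in the AKP lines (left) and medium without EGF minus full medium in the APT lines (right). Filled points passed in that line, open points did not, and Col7a1 in MTO220 reaches the highest value, at 9.68.

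What withdrawal of EGF did was asked over the 8 APT libraries in the same way. Of 21 chains tested, 11 were higher without EGF than in full medium, 2 were lower and 8 did not pass (limma). Over all 15364 genes tested, 48.6% were called, 27.9% higher and 20.7% lower. The median log2 change was 1.45 over the 21 chains and 0.11 over all genes. Of the 21 chains, 10 met the filter only through medium without EGF, so their count and the median over all 21 support nothing. Of the 11 that met it in full medium, 5 were higher and 2 lower. The other 23 collagen genes were not tested. DESeq2 called 13 chains too, 9 higher and 4 lower. Without both pool 2 libraries grown without EGF, which had the lowest RNA concentrations of the series (14.6 and 13.2 ng/µl), 7 chains were called. That setting was chosen after seeing the data.

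Col23a1 rose most, and from a level already seen in full medium. Its libraries held 1464 and 1689 normalised reads without EGF in MTO100, against 46.6 and 73.0 in full medium, 26.3-fold higher by the means. In MTO101 they held 651 and 994 without EGF, against 61.1 and 131 in full medium, 8.58-fold higher. The groups stood apart in both lines, and the log2 change over both was 3.94 ± 0.35 (SE, limma adjusted p = 1.73e-05). Col23a1 is a transmembrane collagen that can be shed from the cell surface.

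Col8a1, Col11a2 and Col7a1 rose from low levels. Col8a1 had 284 and 279.8 normalised reads without EGF in MTO100, against 21.2 and 40.8 in full medium, and 84.7 and 132 without EGF in MTO101, against 12.7 and 14.6 in full medium (log2 change 3.04 ± 0.29, limma adjusted p = 2.3e-05). Col11a2 had 33.0 and 78.2 without EGF in MTO100, against 3.18 and 4.74 in full medium, and 46.6 and 134 without EGF in MTO101, against 9.22 and 12.9 in full medium (3.08 ± 0.42, adjusted p = 0.000212). Col7a1 had 28.3 and 75.6 without EGF in MTO100, against 3.18 and 12.3 in full medium, and 44.4 and 133 without EGF in MTO101, against 6.91 and 11.2 in full medium (2.83 ± 0.49, adjusted p = 0.000898). No groups overlapped. Without EGF, the pool 2 libraries stood above the pool 1 libraries for Col11a2 and Col7a1 in both lines. Over both lines these chains passed without the pool 2 libraries too, while by line Col7a1 did not pass in MTO100 without pool 2 without EGF (adjusted p = 0.132) or pool 1 in full medium (adjusted p = 0.142), nor in MTO101 without pool 2 without EGF (adjusted p = 0.0803). Col11a2 did not pass in MTO101 without that library (adjusted p = 0.0583).

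**Figure D5:**
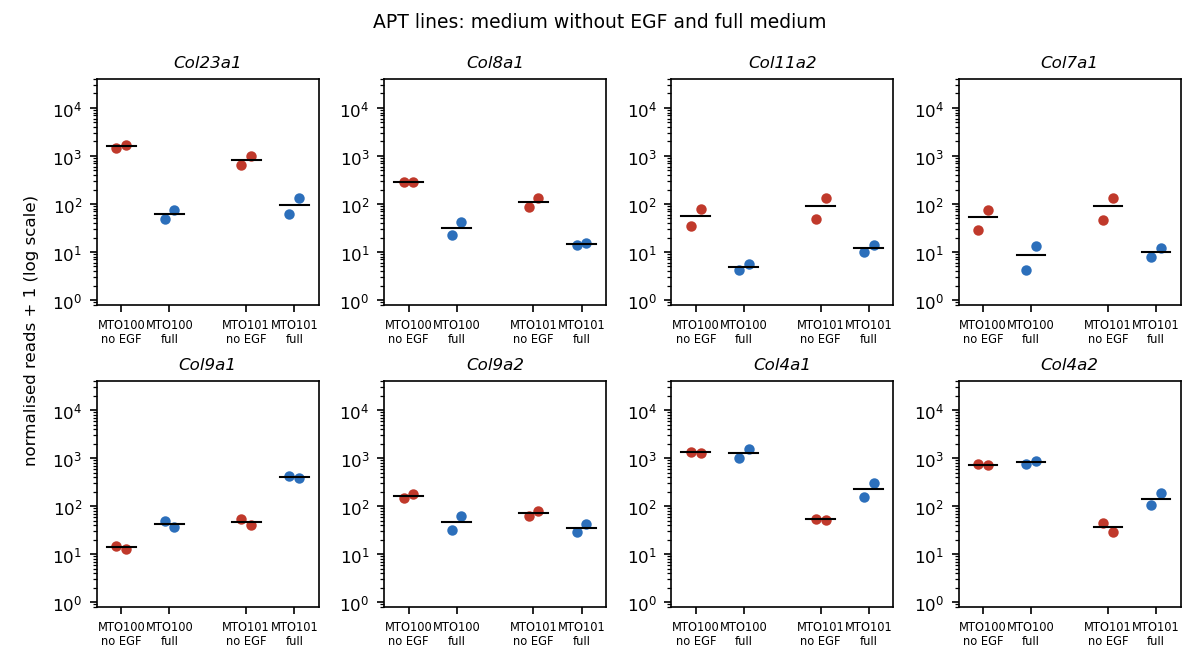
Normalised reads + 1 (log axis) of 8 collagen chains in the 8 APT libraries, with medium without EGF in red to the left of full medium in blue for each line, points for libraries and lines for the mean of 2. Col9a1 is lower without EGF in both lines, while Col4a1 and Col4a2 are lower in MTO101, with 27.7 to 54.0 normalised reads without EGF and 103 to 298 in full medium.

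The chains of type IX collagen split. Col9a1 (chromosome 1, 24177589 to 24252738) fell to 52.9 and 40.6 normalised reads without EGF in MTO101, against 417 and 381 in full medium. In MTO100 it fell to 14.2 and 12.2 without EGF, against 47.7 and 36.0 in full medium. The groups did not overlap in either line, and the log2 change over both was -2.33 ± 0.33 (SE, limma adjusted p = 0.000243). Col9a2 was higher without EGF, with 149 and 177 in MTO100 against 30.7 and 60.7 in full medium, and 62.4 and 79.3 in MTO101 against 27.7 and 42.1 in full medium (1.45 ± 0.31, adjusted p = 0.00292). Col9a3 was higher at lower levels, with 6.35 to 12.9 without EGF against 1.06 to 4.61 in full medium (1.54 ± 0.48, adjusted p = 0.0211), and did not pass without pool 1 of MTO100 in full medium (adjusted p = 0.0618) or pool 2 of MTO101 in full medium (adjusted p = 0.0517). In MTO101 alone Col9a2 passed only with the pool pairs as a term (adjusted p = 0.0343, against 0.0579 without it).

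Of the common type IV pair, both chains were lower without EGF in MTO101, and the difference in response between the APT lines passed for Col4a1 only. In MTO101 Col4a1 had 54.0 and 50.7 normalised reads without EGF, against 157 and 298 in full medium, and Col4a2 had 43.4 and 27.7 without EGF, against 103 and 184 in full medium. In MTO100 Col4a1 had 1367 and 1298 without EGF, against 995 and 1583 in full medium, and Col4a2 had 743 and 705 without EGF, against 754 and 889.9 in full medium. Both chains fell in MTO101 (log2 change -2.03 ± 0.32 and -1.96 ± 0.32, limma adjusted p = 0.000851 and 0.00102) and neither passed in MTO100 (adjusted p = 0.86 and 0.70). The test of MTO101 minus MTO100 gave -2.11 ± 0.46 for Col4a1 (adjusted p = 0.0401), a call lost with the pool pairs as a term (adjusted p = 0.0568) and without any 1 of 6 libraries (adjusted p = 0.0525 to 0.156), and -1.78 ± 0.46 for Col4a2, which did not pass (adjusted p = 0.0738). Over both lines Col4a2 passed (-1.07 ± 0.35, adjusted p = 0.025), but not with the pool pairs as a term (adjusted p = 0.0556) or without any 1 of 3 MTO101 libraries (adjusted p = 0.0582 to 0.0815). Col4a3 had 9.52 to 13.9 without EGF in both lines, against 1.72 to 4.24 in full medium (1.67 ± 0.39, adjusted p = 0.0046). Col4a5 passed over both lines only with the pool pairs as a term (adjusted p = 0.0457, against 0.0553 without it), and likewise in MTO100 (0.0465, against 0.0752). Col18a1 did not pass in APT (-0.30 ± 0.20, adjusted p = 0.235), with 1544 and 1732 without EGF in MTO100 against 2004 and 2813 in full medium.

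Other chains of the APT lines were FACITs and scarce fibrillar chains. Col16a1 had 389 and 666 normalised reads without EGF in MTO100, against 127 and 175 in full medium, and 336 and 436 without EGF in MTO101, against 341 and 257 in full medium (log2 change over both 1.07 ± 0.30, limma adjusted p = 0.0128). In MTO101 alone its groups did not differ past the threshold (0.37 ± 0.31, adjusted p = 0.359). Col20a1 had 29.3 and 82.5 without EGF in MTO100, against 5.30 and 16.1 in full medium, and 33.9 and 45.2 without EGF in MTO101, against 8.06 and 9.46 in full medium (2.16 ± 0.42, adjusted p = 0.00174). In the 8 AKP libraries Col20a1 did not exceed 17.1.

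Scarce chains passed on the strength of 1 line or a few libraries. Col3a1, a fibrillar chain of soft tissue, had 43.4 and 53.9 normalised reads without EGF in MTO100, against 2.12 and 7.59 in full medium, while MTO101 had 16.9 and 12.9 without EGF against 6.91 and 23.2 in full medium. Over both lines it passed (limma adjusted p = 0.0422), but not with the pool pairs as a term (adjusted p = 0.0674) or without any 1 of the 4 MTO100 libraries or pool 1 of MTO101 in full medium (adjusted p = 0.0766 to 0.129). Col22a1 had 13.2 to 15.6 without EGF against 4.30 to 11.4 in full medium (adjusted p = 0.0354), and did not pass with the pool pairs as a term (adjusted p = 0.0510) or without any 1 of 6 libraries (adjusted p = 0.0646 to 0.108). Col2a1, the fibrillar chain of cartilage, passed in MTO100 alone, with 13.2 and 14.8 without EGF against 1.06 and 0 in full medium (adjusted p = 0.00639). Col15a1 and Col17a1 passed in MTO101 alone, with 14.8 in both libraries without EGF against 1.15 and 1.72 in full medium for Col15a1 (adjusted p = 0.0139), and 15.9 and 13.8 against 2.30 and 2.58 for Col17a1 (adjusted p = 0.0167). Neither call held without pool 1 of MTO101 in full medium (adjusted p = 0.0555 and 0.0636), and Col2a1 did not meet the filter without pool 2 of MTO100 without EGF. Col14a1 and Col28a1 did not pass in APT (adjusted p = 0.0713 and 0.140).

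By line, 9 of 21 chains were higher and 1 lower without EGF in MTO100, where 18.5% and 11.7% of all genes were (30.1% in either direction). In MTO101, 9 were higher and 3 lower, where 22.7% and 18.3% of all genes were (40.9% in either direction), and DESeq2 called 5 higher and 3 lower there. Of the 11 chains that met the filter in full medium, 5 were higher and 1 lower in MTO100, and 3 were higher and 3 lower in MTO101. Both lines shared 5 of 21 chains that were higher, Col7a1, Col8a1, Col11a2, Col20a1 and Col23a1, where 12.4% of all genes were higher in both. Of these, Col11a2 and Col20a1 met the filter only through medium without EGF, so this count supports nothing. Without pool 2 of MTO100 without EGF the count of MTO100 was 6 in place of 10, and without pool 1 or pool 2 of MTO101 without EGF the count of MTO101 was 7 or 5 in place of 12. In the test of the difference between the lines, MTO101 minus MTO100, Col4a1 alone passed by limma of 21 chains, where 2.41% of all genes did, 1.34% with a lower response. Leaving out pool 1 of MTO101 in full medium gave 4 calls.

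Of 17 chains tested in all 4 lines, 4 were higher in the changed medium of every line: Col7a1, Col8a1, Col11a2 and Col23a1. Of 14172 genes tested in all 4 lines, 4.11% were. Col7a1, Col11a2 and Col23a1 met the filter in AKP only through TGF-beta medium, and Col11a2 met it in APT only through medium without EGF. The count of 4 therefore supports nothing, and Col8a1 alone of these met the filter in full medium of both genotypes. The upstream bases of Col7a1 and Col8a1 are shown. Those of Col11a2 and Col23a1, whose windows overlap annotated transcribed sequence and hold 0 matches to the letters described next, are not printed. Each run is the 250 bases before the first exon in GRCm38.p6, from RefSeq, 5′ to 3′ on the strand of the gene, and capitals mark the letters CAGAC or their complement GTCTG, which SMAD factors can bind. Col7a1 is chr9:108953336-108953585 on the plus strand and Col8a1 is chr16:57754738-57754987 on the minus strand.
Col7a1: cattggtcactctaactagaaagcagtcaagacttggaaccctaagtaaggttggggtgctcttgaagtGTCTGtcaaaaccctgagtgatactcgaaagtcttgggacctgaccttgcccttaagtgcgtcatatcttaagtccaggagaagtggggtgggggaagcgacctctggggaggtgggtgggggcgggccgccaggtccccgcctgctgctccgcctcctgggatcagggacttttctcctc
Col8a1: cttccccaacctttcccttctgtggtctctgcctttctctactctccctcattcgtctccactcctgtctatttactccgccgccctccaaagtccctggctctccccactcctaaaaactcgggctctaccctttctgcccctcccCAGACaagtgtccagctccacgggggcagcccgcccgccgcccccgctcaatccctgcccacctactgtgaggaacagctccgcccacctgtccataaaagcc
The letters occur once in each run. They occur in 42.2% of the 32851 upstream windows of the same length in the RefSeq table, and in 17 of the 38 windows that match 35 of the 44 collagen genes. The AP-1 letters TGANTCA occur in 6.75% of all windows and 1 of 38 collagen windows, and the TEAD letters GGAATG in 12.6% and 4 of 38, all searched on both strands. Neither occurs in the runs shown, and a match is a description of letters, not of binding.

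Whether the changed media acted differently in AKP and APT was tested as the TGF-beta response minus the response to EGF withdrawal, over all 16 libraries. Of 31 chains, 16 had a higher response in AKP and 1 a lower one, where 14.7% and 15.7% of 16113 genes did (30.4% in either direction). Of the 16, 9 had met the filter through no full-medium group but only through the changed media, so the count supports nothing. Of the 14 chains that met it in full medium, 7 had a higher and 1 a lower response in AKP. Among these, Col7a1 and Col23a1 met it through full medium of APT alone. Col27a1 differed by 5.86 ± 0.59 on the log2 scale (SE, limma adjusted p = 5.18e-06), Col7a1 by 4.71 ± 0.68 (adjusted p = 0.000124), Col3a1 by -1.56 ± 0.68 without passing (adjusted p = 0.100), and Col28a1 by -3.14 ± 0.64 (adjusted p = 0.00188). The type IV pair and Col18a1 differed by 2.79 to 2.87 (adjusted p = 7.15e-07 to 4.62e-06), since they rose in AKP and did not rise in APT. Col11a2 and Col9a1 did not pass (0.60 ± 0.63 and 0.72 ± 0.47, adjusted p = 0.521 and 0.283). Col5a1 passed (1.84 ± 0.64, adjusted p = 0.0434) but not with the pool pairs as a term (adjusted p = 0.0738) or without any 1 of 10 libraries (adjusted p = 0.0640 to 0.109). Col23a1 passed as narrowly (1.57 ± 0.56, adjusted p = 0.0469), and was lost without any 1 of 12 libraries (adjusted p = 0.0519 to 0.109). The media differ between the genotypes, so genotype and medium cannot be told apart in this test.

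Lines of 1 genotype already differed in full medium. MTO220 minus MTO54 gave 5 chains higher and 4 lower of 27, where 10.2% and 9.24% of all genes were. Col4a1 was higher in MTO220, at 2608 and 2719.6 normalised reads against 312 and 339 in MTO54 (log2 difference 3.03 ± 0.18, limma adjusted p = 3.06e-06), and Col8a1 was lower, at 0 and 5.33 against 72.1 and 116 (-5.20 ± 0.65, adjusted p = 0.000284). Col4a3 and Col7a1 passed there only with the pool pairs as a term (adjusted p = 0.0334 and 0.0483). MTO101 minus MTO100 gave 2 chains higher and 3 lower of 21, where 6.37% and 7.92% of all genes were. Col9a1 was higher in MTO101, at 417 and 381 against 47.7 and 36.0 in MTO100 (3.23 ± 0.33, adjusted p = 6.76e-05), and Col4a1, Col4a2 and Col18a1 were lower in MTO101 (log2 difference -2.02 to -2.57, adjusted p = 0.000293 to 0.000428). AKP minus APT in full medium, tested on the mean of each line, gave 0 of 14 chains by limma and 0 by edgeR, with 3 at an unadjusted p under 0.05, and DESeq2 on reads summed per line gave 2, Col16a1 and Col23a1, both lower in AKP. No gene of 14641 passed there by limma (0%).

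Chains that lie head to head were compared as pairs. Starts here are those of protein-coding transcripts in the GENCODE annotation, and they differ from the gene spans printed above, which are from RefSeq. By the RefSeq spans Col4a1 overlaps Col4a2, and Col4a4 overlaps Col4a3. By GENCODE, Col4a1 and Col4a2 start on opposite strands of chromosome 8 with starts that overlap by 22 bases. Their ratio per kb lay between 0.688 and 1.79 in all 16 libraries, while Col4a1 itself ranged from 50.7 to 6709 normalised reads. Col4a4 and Col4a3 start 126 bases apart on chromosome 1 by the GENCODE protein-coding transcripts, although another annotated exon of Col4a3 lies in that gap. In the 4 TGF-beta libraries, where both could be counted, the ratio of Col4a3 to Col4a4 per kb lay between 1.51 and 1.98. Col4a6 and Col4a5 start 1308 bases apart on the X chromosome, and Col4a6 was at 0 in 13 libraries although Col4a5 had up to 146 normalised reads. These ratios describe pairs within libraries and carry no test.

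Genes that build, carry and cut collagen moved only in part with the chains in AKP. Of 15 genes that modify the helix, 7 were higher and 2 lower in TGF-beta medium, where 27.9% and 25.0% of all genes were. Their median log2 change was 0.80, against 0.04 over all genes. P3h1, of the prolyl 3-hydroxylase complex, and P3h4 rose by 1.63 ± 0.27 each on the log2 scale (SE, limma adjusted p = 0.000722 and 0.000754). P4ha3, a prolyl 4-hydroxylase subunit, rose by 2.98 ± 0.58 (limma adjusted p = 0.00186), and P3h2, another prolyl 3-hydroxylase, changed by -1.67 ± 0.29 (adjusted p = 0.00102). Of 10 chaperone and export genes, 4 were higher and 3 lower, close to those shares, with a median of 0.30. By line, 7 helix-modifying genes were higher and 2 lower in MTO220 (median 0.43), and 4 higher and 1 lower in MTO54 (median 0.03). The median over all genes was 0.06 in MTO220 and 0.02 in MTO54. For chaperone and export genes, 5 were higher and 2 lower in MTO220 (median 0.73), and 2 higher and 3 lower in MTO54 (median -0.11). Over all genes, 29.3% were higher and 25.6% lower in MTO220, and 17.1% and 15.4% in MTO54. Sparc, a matrix protein that binds collagen, rose by 7.30 ± 0.84 (adjusted p = 8.28e-05) to 3423 and 2849 normalised reads in MTO220, against 1.15 and 4.44 in full medium. Fkbp14, a folding enzyme, rose by 2.39 ± 0.25 (adjusted p = 4.83e-05), Sec24d, a vesicle coat subunit, changed by -1.08 ± 0.15 (adjusted p = 0.000292), and Creb3l1, a factor known to drive type I collagen genes in bone, changed by -4.08 ± 0.45 (adjusted p = 6.18e-05).

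Among genes for enzymes that act outside the cell, more passed in MTO220 than in MTO54, as did more of all genes (54.9% against 32.5%). Of 11 tested of 15 genes for propeptide cleavage and crosslinking, 7 were higher and 1 lower, with a median log2 change of 2.36. By line, 10 were higher and 0 lower in MTO220 (median 3.98), and 3 were higher and 1 lower in MTO54 (median 0.46). In the test of MTO220 minus MTO54, 8 responded more and 1 less, where 6.95% and 3.55% of all genes did. Bmp1, the procollagen C-proteinase, had 5166 and 4666 normalised reads in TGF-beta medium of MTO220 against 287 and 335 in full medium, and 2331 and 2412 in TGF-beta medium of MTO54 against 357 and 486 in full medium (3.24 ± 0.27, limma adjusted p = 1.2e-05). Loxl4 and Pxdn, crosslinking enzymes, rose by 2.93 ± 0.38 and 2.52 ± 0.53 (adjusted p = 0.000181 and 0.00285), and Pcolce, which enhances Bmp1, by 1.50 ± 0.32 (adjusted p = 0.00311). Of 6 tested of 11 receptor genes, 3 were higher, Cd44, Ddr1 and Itgb1, by 1.87 ± 0.18, 1.44 ± 0.20 and 1.74 ± 0.25 (adjusted p = 3.1e-05, 0.000264 and 0.000303), with a median of 1.09. By line 4 receptor genes were higher in MTO220 and 3 in MTO54. All 3 tested of 8 proteases were higher, with a median of 3.39: Mmp13 by 4.93 ± 0.85, Mmp9 by 3.39 ± 1.07 and Mmp14 by 1.00 ± 0.32 (adjusted p = 0.00091, 0.0214 and 0.0238). By line 3 proteases were higher in MTO220 and 1 in MTO54. In MTO54, Mmp9 held 2.27 and 0.903 in TGF-beta medium against 1.09 and 0.992 in full medium, and Mmp14 held 7.95 and 16.3 against 9.83 and 8.93. Genes of all these lists could meet the filter through TGF-beta medium alone, and how many did so was not counted. Their counts and medians in AKP, in each AKP line and in the test of MTO220 minus MTO54 therefore support nothing.

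In APT some of these genes passed. Over all genes tested, 27.9% were higher and 20.7% lower without EGF. Genes of these lists could meet the filter through medium without EGF alone, so their counts and medians support nothing. Of 14 helix-modifying genes tested, 2 were higher and 2 lower without EGF, with a median log2 change of -0.37 against 0.11 over all genes. Crtap, of the prolyl 3-hydroxylase complex, changed by -1.01 ± 0.21 and Plod2, a lysyl hydroxylase, by -1.60 ± 0.59 (limma adjusted p = 0.00253 and 0.043), while P3h4 and Plod1 rose by 0.76 each (SE 0.22 and 0.29, adjusted p = 0.0139 and 0.0446). Of 8 chaperone and export genes tested, Fkbp14 and the exit-site receptor Mia3 rose by 1.44 ± 0.28 and 1.11 ± 0.23 and Creb3l1 changed by -1.95 ± 0.28 (adjusted p = 0.00185, 0.00238 and 0.000272), and the median was 0.10. Of 9 cleavage and crosslinking genes tested, Adamts14 rose by 1.14 ± 0.39 while Tgm2 and Pcolce2 changed by -1.15 ± 0.20 and -1.42 ± 0.46 (adjusted p = 0.0293, 0.000952 and 0.0249), and the median was 0.15. Of 5 receptor genes tested, Cd44 and Ddr1 rose by 0.72 ± 0.25 and 0.52 ± 0.20 and Itga2, a subunit of a collagen integrin, changed by -1.61 ± 0.40 (adjusted p = 0.0339, 0.0499 and 0.00658), with a median of 0.52. Mmp14 was the only protease tested and rose by 1.29 ± 0.31 (adjusted p = 0.00584).

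Markers of other cells moved with some of these results, and their part in them was not tested. The 10 fibroblast markers summed to 858 to 1154 normalised reads in TGF-beta medium of AKP, against 419 to 707 in full medium, and to 657 to 1157 without EGF in APT, against 587 to 652 in full medium. Most of that was Acta2 in AKP, at 727 to 1015 in TGF-beta medium against 407 to 698 in full medium. Lum was at 0 in all 16 libraries and Twist2 at 0 in all 8 AKP libraries, while Pdgfra, Acta2, Dcn and Pdgfrb, the 4 tested in AKP, were all higher, Acta2 by 0.78 ± 0.14 on the log2 scale (limma adjusted p = 0.00135). In APT 2 of 3 tested were higher, Pdgfra and Postn. These markers too could meet the filter through the changed medium alone, so their counts support nothing. The 4 Schwann and glial markers summed to 28.0 to 108 in TGF-beta medium of AKP, against 4.60 to 15.1 in full medium, and to 43.4 to 97.3 without EGF in APT, against 10.6 to 24.9 in full medium, with Sox10 at 0 without EGF. The 4 smooth muscle markers summed to 67.8 to 193 in TGF-beta medium of AKP, against 61.5 to 96.8 in full medium, and to 78.3 to 94.1 without EGF, against 44.9 to 80.0 in full medium of APT. The 5 immune markers summed to 77.7 to 92.0 in TGF-beta medium of MTO54, against 30.6 to 93.3 in full medium. In MTO220 they summed to 81.8 to 95.0 in TGF-beta medium, against 316 to 327 in full medium. In APT they summed to 210 to 637 without EGF, against 31.8 to 162 in full medium, and Cd3e was at 0 in all AKP libraries. The 5 endothelial markers summed to 46.1 to 50.0 in TGF-beta medium of MTO54, against 613 to 1254 in full medium, where only 1 of the 5 reached 10 in both libraries. In MTO220 they summed to 33.3 to 40.9 in TGF-beta medium, against 55.2 to 68.4 in full medium. In APT they summed to 267 to 873 without EGF, against 156 to 301 in full medium, and Emcn was at 0 throughout. Of the 9 epithelial markers, 3 were higher and 3 lower in TGF-beta medium of AKP, where 27.9% and 25.0% of all genes were. Cdx1, an intestinal transcription factor, changed by -6.52 ± 0.40 on the log2 scale (limma adjusted p = 2.03e-06). In APT 1 was lower without EGF, where 20.7% of all genes were. That was Cdx2, at -1.28 ± 0.29 (limma adjusted p = 0.00388).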

How the data were processed

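RNA-seq libraries were made from poly(A) RNA without molecular identifiers, 1 per line, medium and passage. Per the submitters' processing notes the tools were STAR 2.3.0e and DESeq2 1.22.1 and the genome mm10; the kit named in the labels does not mark strand. The deposited signal values are counts divided by a size factor: 100% were whole multiples of 1 read within 0.001, so reads were recovered, and edgeR's test on them called 8007 genes in AKP and 7484 in APT. Symbols were found for 25275 of 27179 gene IDs (93.0%), including all 44 collagen genes in RefSeq.

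Genes with at least 10 normalised reads in 2 of the libraries in a fit were tested on log2(value + 1) with limma 3.58.1 (trended, robust, R 4.3.3), two-sided, with p-values Benjamini-Hochberg adjusted over all genes tested. This scale understates changes of low genes. Each genotype's 8 libraries shared 1 fit, all 16 were used for the difference between responses, and line means for AKP against APT in full medium. Folds are ratios of mean normalised reads; at 0 reads a floor of 3 reads per library was used, which covers counting error only. The fits were tested on simulated data. The labels give libraries of the same number in a line the same passage and, but for the library titled replicate 1, the same pool, so the numbers pair samples. Pool deviations correlated between media at r = 0.0472 in MTO54, 0.215 in MTO220, 0.209 in MTO100 and 0.155 in MTO101, over genes. The alternatives were edgeR 4.0.16, DESeq2 1.42.0, scaling by library totals, other pseudocounts and filters, pool pairs as a term, each line alone, and leaving out libraries.

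Every measured chain is named. Values in every library are given for chains called in a media comparison with a mean of at least 50 normalised reads in some group, up to 14 per comparison in order of p, with others added. From each list of other genes, up to 4 with the smallest p are named. The members and lists were chosen with earlier results of these data known.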

Additional observations from a re-analysis of the deposited data

Results flagged for a closer look

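Differences in response between lines of 1 genotype passed a test of the difference itself (limma, Benjamini-Hochberg adjusted p under 0.05 over all genes). For the response to TGF-beta medium, MTO220 minus MTO54, the log2 differences were 8.17 for Col5a3, 6.61 for Col8a1, 4.29 for Col7a1, 4.18 for Col27a1, 3.60 for Col23a1, 3.51 for Col17a1 and 3.34 for Col5a1. They were 2.37 for Col4a4, 2.20 for Col14a1, 2.09 for Col18a1, 1.66 for Col16a1, -1.43 for Col4a1 and -3.11 for Col26a1. EdgeR did not call Col4a4, Col5a1, Col5a3, Col17a1 or Col23a1 (edgeR adjusted p = 0.0740 to 0.994). For the response to EGF withdrawal, MTO101 minus MTO100, the difference was -2.11 for Col4a1.

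The TGF-beta response of AKP minus the EGF-withdrawal response of APT passed the same kind of test for 17 chains. The log2 differences were 5.86 for Col27a1, 4.71 for Col7a1, 3.98 for Col26a1, 3.97 for Col1a1, 3.86 for Col4a3, 3.48 for Col4a4, 3.43 for Col6a1 and 3.13 for Col8a2. They were 2.89 for Col5a3, 2.87 for Col4a1, 2.79 for Col18a1, 2.79 for Col4a2, 2.41 for Col12a1, 2.29 for Col8a1, 1.84 for Col5a1, 1.57 for Col23a1 and -3.14 for Col28a1. EdgeR did not call Col5a1, Col5a3, Col6a1, Col8a2 or Col12a1 here (edgeR adjusted p = 0.0541 to 0.9998). DESeq2 did not call Col5a1, Col5a3, Col6a1 or Col12a1 (DESeq2 adjusted p = 0.118 to 0.318). What underlies these differences was not tested.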

How the results depend on the processing

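Of 142 calls of a chain in a comparison, 86 held under every alternative in which the chain was still tested and had an adjusted p. Alternatives that dropped the chain were not counted against it, as for Col2a1 in MTO100. Of 2573 alternative values, 231 lost a call and 0 changed direction. Asking for 10 normalised reads in full-medium libraries, chosen after seeing the data, tests fewer chains and gave 8 calls in AKP in place of 22, 7 in APT in place of 13, 6 in MTO54 in place of 16, 9 in MTO220 in place of 24, 6 in MTO100 in place of 10, 6 in MTO101 in place of 12, 6 for the MTO220 minus MTO54 response in place of 13 and 8 for the AKP minus APT response in place of 17. Averaging pools and pairing lines, which leaves 2 pairs, gave 10 calls in AKP and 7 in APT, MTO54 fitted alone gave 14 in place of the 22 of both AKP lines, and leaving out both pool 2 libraries without EGF gave 7 in APT. EdgeR gave 8 calls for the MTO220 minus MTO54 response. For the MTO101 minus MTO100 response, DESeq2 gave 3 calls, library totals 0 and the replicate block 0, in place of 1, and for AKP minus APT in full medium DESeq2 gave 2 in place of 0. Where not given by the alternative's construction, the cause was not tested.

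Leaving out 1 library at a time gave 18 to 23 calls in AKP, 11 to 14 in APT, 12 to 18 in MTO54, 18 to 24 in MTO220, 6 to 12 in MTO100, 5 to 13 in MTO101, 4 to 13 for the MTO220 minus MTO54 response, 0 to 4 for the MTO101 minus MTO100 response and 13 to 18 for the AKP minus APT response. In full medium it gave 7 to 10 for MTO220 minus MTO54, 5 to 7 for MTO101 minus MTO100 and 0 throughout for AKP minus APT. Scaling by library totals moved the median log2 change of all genes to 0.16 in AKP, against 0.04, and to 0.34 in APT, against 0.11, and no called chain changed direction. With the pool pairs as a term (the replicate block), the count of calls was 20 in AKP and 11 in APT, and no call changed other than those named with their blocked value. The block could not be fitted on pool averages for AKP minus APT in full medium. Low reads limit the scarce chains. Of 44 genes, 13 did not reach 10 normalised reads in 2 libraries and were not tested.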
